A study of Mus musculus with 17 samples.

Results

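Vein grafts explanted after 6 h of perfusion were compared with ungrafted vena cava. The members were chosen by their labels, 5 grafts with a perfusion time of 6 h and 4 controls, together 9 of the 17 samples of the series. All were from male C57BL/6J mice of 10 to 12 weeks. For grafting, the inferior vena cava of a donor mouse was fixed over cuffs between the cut ends of a carotid artery, blood flow was restored, and the graft without its anastomosis zones was taken for RNA sequencing. The recipients had received heparin and narcosis before surgery, and nothing of this kind is stated for the controls. Excision, ischaemia, surgery and arterial flow therefore cannot be told apart, and neither can RNA of the donor vessel and of recipient blood cells, since only 1 strain is named. All 9 libraries carry the number 7 in their titles, read here as the lane. Libraries are numbered as the count columns are. These numbers are not those of the 6 h titles, and nothing states that each library came from a separate mouse, so p-values measure the spread between these libraries.

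When a vein is placed into an artery, it meets arterial pressure, reperfusion and contact with activated blood. Injured vessel wall is known to answer through NF-κB, a transcription factor held in the cytoplasm by IκB proteins until cytokines or danger signals release it. Its targets include chemokines of the CXC family, which call neutrophils through the receptor CXCR2, chemokines of the CC family, which call monocytes, and the selectins and ICAM1, on which leukocytes roll and stop.

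Cxcl1, Cxcl2 and Cxcl3 lie close together on chromosome 5, and their promoters are shown because these 3 genes had large rises and hold a κB motif. The promoters of Il6 and of Nfkbia, the gene of the NF-κB inhibitor IκBα, were chosen for the same motif, so the 5 promoters do not stand for the genes that rose. No promoter of Cxcl5 was matched. Each line is the 250 bases before the transcription start, 5′ to 3′ on the strand of the gene, from RefSeq (GRCm38.p6). Capitals mark matches on either strand to a form of the κB motif, GGG followed by any 2 bases and TTTCC.
Cxcl1, chr5:90890995-90891244, plus strand: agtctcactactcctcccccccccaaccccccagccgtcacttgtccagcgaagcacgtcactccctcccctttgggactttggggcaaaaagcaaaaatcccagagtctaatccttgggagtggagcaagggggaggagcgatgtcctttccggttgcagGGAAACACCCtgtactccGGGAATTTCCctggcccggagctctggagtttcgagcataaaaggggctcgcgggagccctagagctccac
Cxcl2, chr5:90903649-90903898, plus strand: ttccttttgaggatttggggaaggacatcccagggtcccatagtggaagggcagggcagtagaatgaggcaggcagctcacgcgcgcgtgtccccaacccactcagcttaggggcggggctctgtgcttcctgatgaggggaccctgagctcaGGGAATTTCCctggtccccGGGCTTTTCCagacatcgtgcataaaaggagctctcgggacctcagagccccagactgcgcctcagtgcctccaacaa
Cxcl3, chr5:90785851-90786100, plus strand: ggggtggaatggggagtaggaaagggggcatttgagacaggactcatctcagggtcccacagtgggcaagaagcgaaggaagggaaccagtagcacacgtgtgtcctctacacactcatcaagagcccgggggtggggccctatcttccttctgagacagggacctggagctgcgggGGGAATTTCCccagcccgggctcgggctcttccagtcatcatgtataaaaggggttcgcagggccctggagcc
Il6, chr5:30012864-30013113, plus strand: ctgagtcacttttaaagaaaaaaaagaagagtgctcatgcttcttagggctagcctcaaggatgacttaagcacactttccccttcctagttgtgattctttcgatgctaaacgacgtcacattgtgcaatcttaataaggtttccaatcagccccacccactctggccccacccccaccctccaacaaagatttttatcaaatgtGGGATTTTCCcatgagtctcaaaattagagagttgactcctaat
Nfkbia, chr12:55492648-55492897, minus strand: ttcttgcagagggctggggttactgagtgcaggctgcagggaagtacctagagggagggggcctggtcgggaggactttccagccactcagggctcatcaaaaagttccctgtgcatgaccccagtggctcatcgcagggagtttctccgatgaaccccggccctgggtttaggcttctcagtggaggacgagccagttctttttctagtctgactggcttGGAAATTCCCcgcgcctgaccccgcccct

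The match GGGAATTTCC stood in all 3 chemokine promoters, Cxcl1 and Cxcl2 each had 2 matches, and the match of Nfkbia and 1 match of Cxcl1 lay on the opposite strand. Of all 32851 RefSeq promoters of this length, 1.41% held the motif. Among tested genes with a promoter in that table, 133 of 7698 held it (1.73%), against 22 of the 501 called higher (4.39%) and 1 of the 124 called lower (0.806%). The motif stood in 3 of 9 promoters of the neutrophil CXC chemokine list, 1 of 10 of the CC list, 2 of 14 of the interleukin 1 list and 1 of 7 of the interleukin 6 list, so most members with a promoter in the table had no match. Other forms of the motif were not searched for, so these promoters may hold other κB sites. A match is a description of letters and not of binding. In the mm9 build of the counts, Cxcl5 (chr5:91188325-91190651), Ppbp (chr5:91197544-91199086), Pf4 (chr5:91201461-91202407), Cxcl3 (chr5:91215129-91217112), Cxcl1 (chr5:91320267-91322141) and Cxcl2 (chr5:91332897-91334935) lie in this order on the plus strand, each a protein-coding gene.

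At 6 h, grafts differed from control vena cava mainly by genes that were higher. Of 10383 entries tested, 665 were higher (6.40%) and 164 were lower (1.58%) at an adjusted p under 0.05 (edgeR's quasi-likelihood F test, 2-sided, adjusted by Benjamini and Hochberg over all entries). In 1022 entries (9.84%) every graft was above every control, and in 549 (5.29%) every graft was below. Counts below of list members called, or of genes without overlap, are to be read beside these shares. Each entry is a RefSeq transcript and is called a gene here. The SE printed with a log2 fold change is the size of that change divided by the square root of F. It is thus derived from the test, and for genes with few counts in a group it does not give the uncertainty of the fold. Cxcl12, Rela, Pecam1, F3, Ldha, Pgk1, Per3 and Cebpa are named below although their choice was made after their values were seen. Levels are counts per 1000000 (CPM) after TMM scaling and are not corrected for length, so they are compared between libraries and not between genes. The median log2 fold change of all tested genes was -0.02. With scaling by library totals alone it was -0.44, and 463 genes were higher and 512 lower, so small differences depend on the scaling, and all changes below are relative to the TMM scale. Leaving out 1 library at a time gave 508 to 573 higher and 80 to 143 lower genes. Without control replicate 1, 2 or 3 the lower count was 80, 97 or 93.

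**Figure D1:**
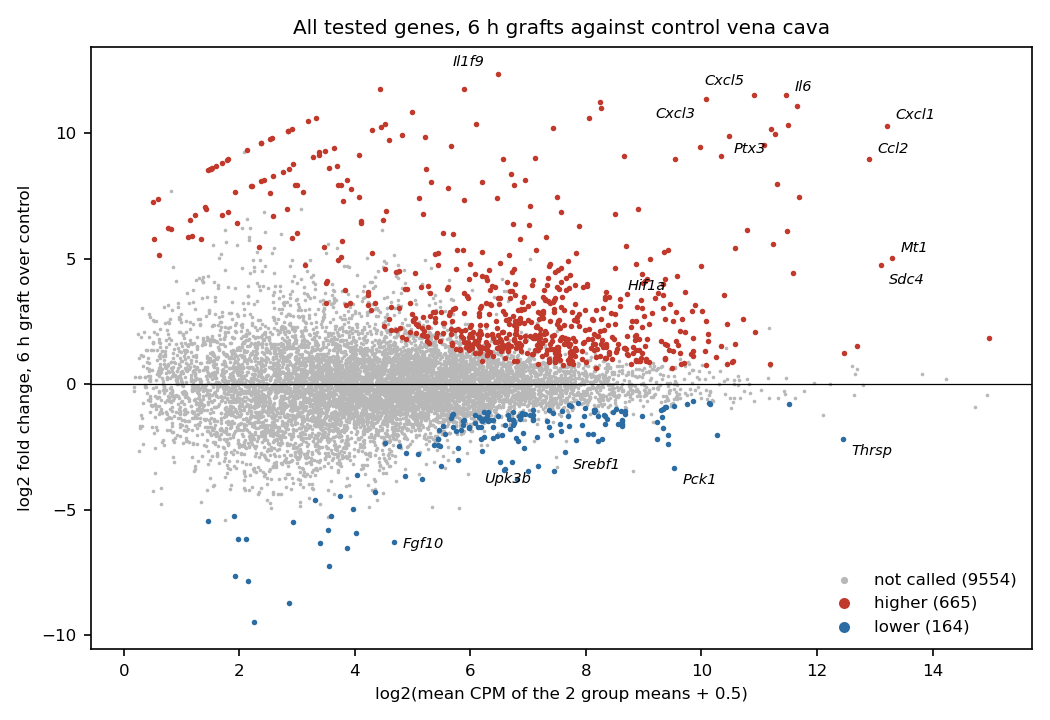
Each point is 1 of the 10383 tested entries, with its mean level over the group means on the horizontal axis (log2 of CPM plus 0.5) and its log2 fold change in 6 h grafts over control on the vertical axis. Red points are the 665 genes called higher and blue points the 164 called lower, and the labelled genes Cxcl1, Cxcl3, Cxcl5, Ccl2 and Il6 stand at the upper right, at log2 fold changes above 8. Fitted values of genes with few or no control counts depend on the model.

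Total counts were 8569614 to 11029712 in controls and 10171059 to 11816124 in grafts, and correlations of log2 CPM within a group were 0.726 to 0.813. In multidimensional scaling graft replicate 5 lay at 4.18 on axis 2, where the other 8 libraries lay between -1.56 and 0.72. Without it 555 genes were higher and 143 lower. The genes with the most counts in control vena cava included Car3, Scd1, Cfd and Fabp4, which are typical of fat. The separate list of fat cell markers, which holds Cfd and Fabp4 but not Car3 or Scd1, summed to 35727 to 54121 CPM in controls. Endothelial markers summed to 753 to 992 CPM and smooth muscle markers to 888 to 1500 CPM in controls. Markers of heart muscle summed to 2235 to 14697 CPM in controls and 409 to 21443 CPM in grafts. In bulk tissue fewer cells of a type and less RNA per cell cannot be told apart.

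Several chemokines were among the genes with large rises at high levels. Of 10 tested members of the list of neutrophil CXC chemokines and receptors 8 were higher, 0 were lower and the median log2 fold change was 5.81, beside -0.02 for all genes. Cxcl5 had 1.08, 1.83, 0.737 and 1.52 CPM in control replicates 1 to 4 and 2298, 4632, 5516, 3649 and 3106 CPM in graft replicates 1 to 5 (log2 fold change 11.52, SE 0.47, adjusted p = 4.4e-08). Cxcl2 had 3.77, 2.84, 3.47 and 1.88 CPM in controls and 6794, 4132, 6745, 4558 and 10109 CPM in grafts (11.08, SE 0.46, adjusted p = 4.4e-08). The groups were far apart for both, and graft replicate 5 was the highest for Cxcl2 but not for Cxcl5. Cxcl3 had 0.628, 1.01, 0.632 and 0.938 CPM in controls and 2225, 1344, 3420.1, 1428 and 2337 CPM in grafts (11.36, SE 0.47, adjusted p = 4.4e-08). Cxcl1 had 32.2, 15.3, 7.26 and 5.99 CPM in controls and 18073, 13754, 28899, 18293 and 16296 CPM in grafts (10.29, SE 0.68, adjusted p = 3.33e-06). Among controls Cxcl1 was highest in replicate 1, without which its log2 fold change was 10.97. Cxcl12, a chemokine of the resting wall that holds progenitors in bone marrow, was at -1.61 (SE 0.60, adjusted p = 0.142) and was called lower by DESeq2 only.

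Il6, the cytokine that drives the acute phase response, and Csf3, the growth factor that releases neutrophils from bone marrow, rose with the chemokines. Il6 had 1.79, 2.38, 2.42 and 1.15 CPM in controls and 6540.0, 4615, 6859.9, 5870.0 and 4326 CPM in grafts (11.51, SE 0.39, adjusted p = 1.55e-08). Csf3 had 0.269, 0.550, 0.316 and 0.216 CPM in controls and 777, 469, 370.4, 493 and 557 CPM in grafts (10.59, SE 0.43, adjusted p = 4.4e-08). No control library reached 3 CPM of either gene. Of 9 tested members of the interleukin 6 family list 6 were higher, 0 were lower and the median was 2.55. Osmr, the receptor chain for oncostatin M, rose by 2.55 (SE 0.30, adjusted p = 0.000244). Socs3, which stops signalling of the interleukin 6 receptor, rose by 4.92 (SE 0.80, adjusted p = 0.00261), with 5.11, 40.4, 2.95 and 4.55 CPM in controls and 525, 351, 464, 375 and 289 CPM in grafts. Control replicate 2 was the highest of the controls, and without it the log2 fold change of Socs3 was 6.57. Il11 had 0 counts in all controls and 5.74, 35.4, 2.31, 16.8 and 35.3 CPM in grafts, which is at least 293-fold higher against a floor of 3 counts over the control group.

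In the list of CC chemokines, many of which call monocytes, 10 of 17 tested members were higher, 0 were lower and the median was 2.70. Ccl2, the main ligand of the monocyte receptor CCR2, had 39.2, 22.4, 29.4 and 31.8 CPM in controls and 12391, 13894, 24350.4, 12401 and 13010.3 CPM in grafts (8.95, SE 0.37, adjusted p = 4.4e-08). Graft replicate 3 was the highest and the other 4 grafts lay close together. Ccl7, which binds the same receptor, had 34.2, 51.3, 39.1 and 23.5 CPM in controls and 5619, 6699, 11535, 4751 and 4281 CPM in grafts (7.47, SE 0.44, adjusted p = 1.09e-06). Ccl4, which calls monocytes and T cells, rose by 9.11 (SE 0.50, adjusted p = 6.64e-07), and reads of Ccl4 and its neighbour Ccl3 may be hard to tell apart. Ccl11, which calls eosinophils, rose by 2.70 (SE 0.30, adjusted p = 0.000184).

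**Figure D2:**
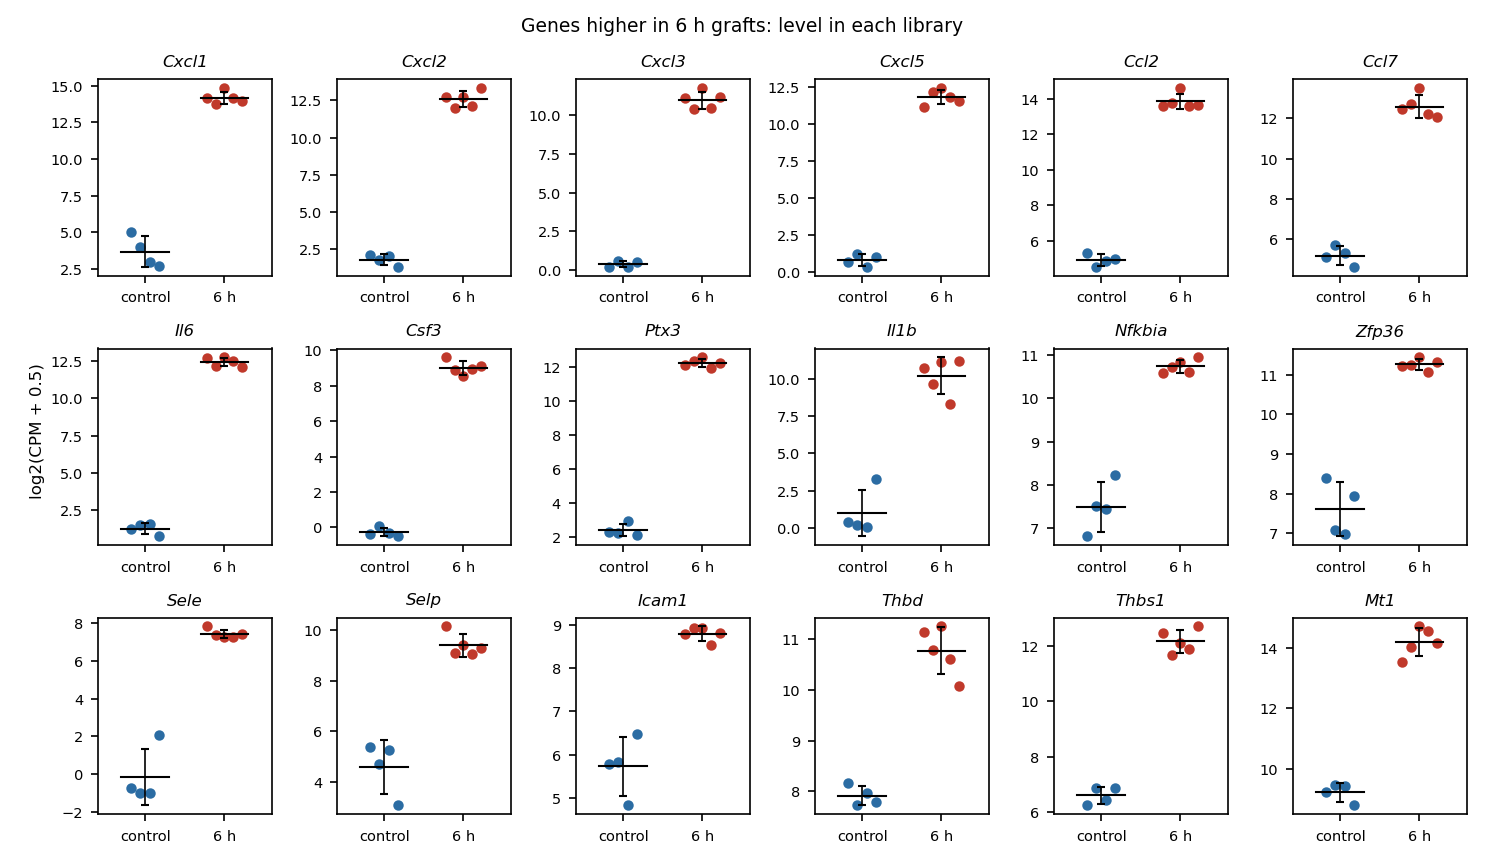
Levels of 18 genes in each library, as log2 of CPM plus 0.5, with 4 control vena cavae in blue and 5 grafts at 6 h in red. Bars are group means and whiskers are SDs, and the vertical scale differs between panels. In all 18 genes every graft is above every control, but they are shown because they were higher. Of all tested entries 9.84% had every graft above every control.

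In the interleukin 1 family 11 of 15 tested members were higher and 0 were lower. Their median was 7.67, or 6.13 with the 7 genes of 0 to 3 control counts at their bound. These 7 passed the count filter through the grafts, which fixed their direction, so for them being higher is no test. The count of higher members was 8 to 10 in the fits without 1 library and 8 with a filter of 50 counts in 4 libraries. Il1f9, also known as interleukin 36γ, had 1 count over the controls and 201, 169, 192, 107 and 219 CPM in grafts, a ratio of 7996 (95% counting interval 1435 to 315850). Il1b, the leading cytokine of the inflammasome, had 0.807, 0.641, 0.526 and 9.38 CPM in controls and 1715, 802, 2262, 311 and 2317 CPM in grafts (8.99, SE 1.18, adjusted p = 0.000625). Control replicate 4 was the highest control and graft replicate 4 the lowest graft of Il1b, and without control replicate 4 its log2 fold change was 11.10. Nlrp3, the sensor of the inflammasome, had 1 count over the controls, in replicate 1, and a ratio of 1724 (309 to 68140). Il1r2, a decoy receptor that binds interleukin 1 without signalling, rose by 9.89 (SE 1.05, adjusted p = 0.000131), with 2882, 774, 1684, 793 and 8127 CPM in grafts. Graft replicate 5 was the highest for Il1r2, whose log2 fold change was 8.99 without it and 10.55 without control replicate 2.

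The NF-κB system itself rose in its inhibitor and in the subunits p50 and c-Rel. Of 12 tested members 5 were higher, 0 were lower and the median was 2.21. Nfkbia had 112, 183, 174 and 298 CPM in controls and 1535, 1695, 1820.4, 1552 and 1961 CPM in grafts (3.16, SE 0.28, adjusted p = 4.22e-05). Nfkb1 rose by 2.50 (SE 0.31, adjusted p = 0.000451) and Birc3, an inhibitor of apoptosis downstream of TNF receptors, by 2.43 (SE 0.35, adjusted p = 0.00126). Rel, at 0.717, 0.183, 0 and 1.59 CPM in controls and 81.9, 57.95, 49.4, 74.2 and 92.1 CPM in grafts, had a log2 fold change of 6.77 (SE 0.97, adjusted p = 0.00118), and of 7.80 without control replicate 4. Rela, the subunit p65, was at 0.53 (SE 0.31, adjusted p = 0.385) and was not called.

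Immediate early genes were raised at 6 h. Of 16 tested members 14 were higher, 0 were lower and the median was 3.21, and all 16 had positive values. Ier3, a survival factor induced by stress, had 81.9, 79.4, 79.1 and 57.8 CPM in controls and 2094, 1983, 2166, 1540.5 and 2024 CPM in grafts (4.72, SE 0.22, adjusted p = 1.32e-07). Atf3, a stress-induced repressor, had 37.9, 28.2, 35.7 and 25.4 CPM in controls and 244, 381, 218, 257 and 407 CPM in grafts (3.24, SE 0.29, adjusted p = 4.22e-05). The groups did not overlap for either gene, and control replicate 4 was the lowest control of both. Btg2, which slows cell division, rose by 2.51 (SE 0.20, adjusted p = 1.2e-05) and Fosl2, an AP-1 subunit, by 3.03 (SE 0.31, adjusted p = 0.000112). Nr4a1, a nuclear receptor induced by many stimuli, had 50.2, 98.7, 57.3 and 37.9 CPM in control vena cava and 202, 237, 280.2, 236 and 279 CPM in grafts (2.02, SE 0.30, adjusted p = 0.00156), so it was higher in every graft than in any control.

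In the list of MAPK phosphatases, Sprouty proteins and mRNA decay factors 8 of 16 tested members were higher, 0 were lower and the median was 2.33. Zfp36, which marks cytokine mRNAs for decay, had 337, 134, 127 and 247 CPM in controls and 2406, 2449, 2774, 2147 and 2575 CPM in grafts (3.55, SE 0.32, adjusted p = 4.41e-05). Dusp1, a phosphatase of MAP kinases, rose by 4.32 (SE 0.55, adjusted p = 0.000478) and Spry2, an inhibitor of receptor tyrosine kinase signalling, by 3.18 (SE 0.47, adjusted p = 0.0014). Control replicate 1 was the highest control of both, and without it the values were 4.95 for Dusp1 and 3.94 for Spry2. Errfi1, a member of the EGF list that inhibits the EGF receptor, had 71.99, 85.2, 85.8 and 119 CPM in controls and 852, 1060.1, 1519.9, 1182 and 1003 CPM in grafts (3.63, SE 0.25, adjusted p = 5.88e-06).

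Markers of neutrophils showed the highest median of all lists of cell markers. Of 22 listed genes 15 were tested, 13 of them were higher and 0 were lower, and the median was 8.97. Mmp8, Fpr1, Trem1 and Stfa2l1 had only 13, 16, 11 and 1 counts over the controls. They passed the count filter through the grafts, which fixed their direction, so for them being higher is no test. The summed level of the list was 50.2 to 146 CPM in controls and 8284 to 71646 CPM in grafts, with graft replicate 5 the highest and graft replicate 4 the lowest. This sum holds Lcn2, which the glucocorticoid list holds as well. Lcn2 had 1953, 4616, 7356, 4309 and 7083 CPM in graft replicates 1 to 5, and how much of it came from neutrophils was not tested. S100a9, a calcium-binding protein that fills the cytoplasm of neutrophils, had 1.52, 2.29, 6.53 and 5.92 CPM in controls and 2590.4, 2564, 3224, 669 and 14532 CPM in grafts (10.18, SE 1.11, adjusted p = 0.000168). Without graft replicate 5 its log2 fold change was 9.10. Mmp8, the collagenase of neutrophil granules, rose by 11.01 (SE 1.03, adjusted p = 5.48e-05) or 10.02 without that library. Trem1, a receptor that amplifies inflammation in neutrophils and monocytes, rose by 11.24 (SE 0.87, adjusted p = 1.27e-05) or 10.64 without it. Stfa2l1 and Mrgpra2b were among the largest rises too, with 1 and 0 counts over the controls, but both have near-identical relatives and their reads may be shared. Ptprc, the pan-leukocyte gene of CD45, had 1.34, 6.78, 3.90 and 16.9 CPM in controls and 7.69, 0.0911, 0.121, 5.36 and 0 CPM in grafts (-1.44, SE 1.58, adjusted p = 0.683), with overlapping groups. Without control replicate 4 the value of Ptprc was -0.59 and without graft replicate 1 it was -2.41. This is 1 RefSeq entry with 360 counts over the controls and 132 over the grafts, so it says little about the amount of leukocyte RNA.

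Of 12 tested platelet markers 7 were higher, 0 were lower and the median was 4.09, and the summed level, 209 to 420 CPM in controls and 1450 to 10406 CPM in grafts, did not overlap. Graft replicate 3 had the highest sum. Ppbp, a chemokine of platelet granules, had 37.5, 13.01, 67.5 and 12.9 CPM in controls and 379.9, 583, 3486, 582 and 1309 CPM in grafts (5.28, SE 0.85, adjusted p = 0.0024), or 4.44 without graft replicate 3 and 5.91 without control replicate 3. Pf4, platelet factor 4, had 269, 187, 246 and 155 CPM in controls and 678, 878, 4131, 873 and 1455 CPM in grafts (2.90, SE 0.54, adjusted p = 0.00598), or 2.17 without graft replicate 3. Itga2b, the platelet integrin αIIb, rose by 4.47 (SE 0.92, adjusted p = 0.011).

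Lists of other blood cells and of resident immune cells held fewer calls. Of 11 tested members of the monocyte list 2 were higher, beside 6.40% of all tested genes, and 0 were lower. The median of this list was 0.62. Cd14, the co-receptor for endotoxin, had 81.4, 102, 70.4 and 71.4 CPM in controls and 5937, 4066, 4056, 2822 and 11282 CPM in grafts (6.12, SE 0.46, adjusted p = 1.07e-05), with graft replicate 5 the highest. The sum of the list was 1629 to 3192 CPM in controls and 4304 to 13277 CPM in grafts. Without Cd14, a setting chosen after seeing the data, it was 1549.7 to 3120.1 CPM in controls and 744.7 to 2148.5 CPM in grafts, and the groups overlapped. Lyz2, the lysozyme of macrophages and neutrophils, was at -0.55 (SE 0.32, adjusted p = 0.387) and was not called. Of 14 tested markers of resident macrophages 2 were lower, beside 1.58% of all tested genes, and 0 were higher. Their median was -1.22, with sums of 1623 to 2038 CPM in controls and 762 to 1414 CPM in grafts. The 2 genes were Cbr2 (-1.44, SE 0.36, adjusted p = 0.0291) and Cd209f, a lectin (-1.84, SE 0.47, adjusted p = 0.034). Leaving out any 1 of the 9 libraries left 0 or 1 of them. The lists of B cells (7 tested), T and natural killer cells (7), mast cells (4) and red blood cells (4) had 0 members called in either direction by edgeR or DESeq2 and 0 at an unadjusted p under 0.05. The B cell sum was 356 to 2367 CPM in controls and 22.1 to 877 CPM in grafts, and the red blood cell sum was highest in graft replicate 5, at 19090 CPM.

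**Figure D3:**
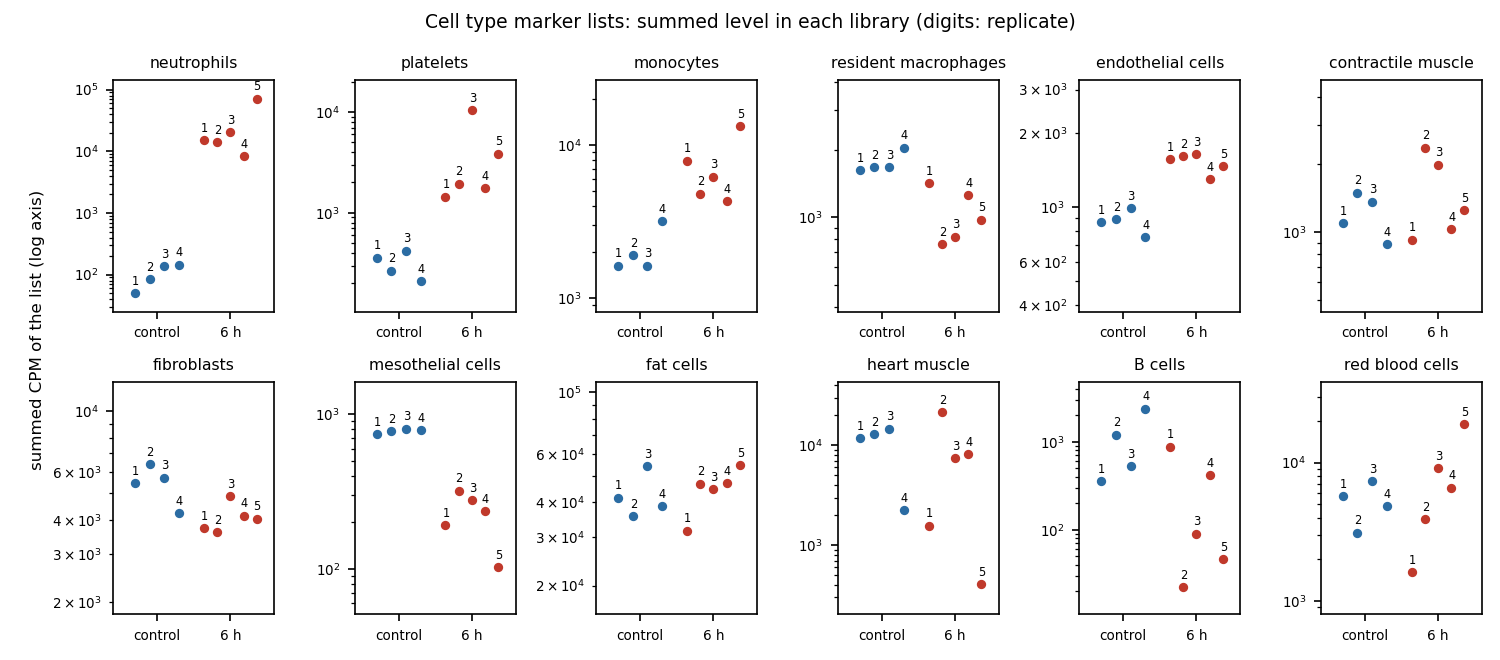
Summed CPM of 12 lists of cell type markers in each library on a log axis that differs between panels, with controls in blue, 6 h grafts in red and the replicate number beside each point. The groups are apart for neutrophils (50.2 to 146 against 8284 to 71646), platelets, monocytes, resident macrophages, endothelial cells and mesothelial cells, and overlap for the other 6 lists. The monocyte sums overlap when Cd14 is left out (1549.7 to 3120.1 against 744.7 to 2148.5).

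In the group of pattern recognition receptors 9 of 19 tested members were higher, 0 were lower and the median was 2.60. Without graft replicate 1, 3 or 5 the count was 5, 4 or 5. Myd88, the adaptor of most Toll-like receptors, rose by 2.60 (SE 0.49, adjusted p = 0.00662). Fpr1, a receptor for bacterial and mitochondrial peptides, rose by 8.97 (SE 1.31, adjusted p = 0.00135), or 7.98 without graft replicate 5 and 12.14 without control replicate 2. Fpr1 and Trem1 stand in both this list and that of neutrophils, so their share of this count cannot be told apart from that of the cells.

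Among leukocyte adhesion molecules 4 of 12 tested members were higher, 0 were lower and the median was 1.142. Sele, E-selectin of activated endothelium, had 0.0897, 0, 0 and 3.75 CPM in controls and 227, 166, 155, 154 and 172 CPM in grafts (7.42, SE 1.25, adjusted p = 0.00328). Of the controls, replicate 4 held nearly all counts, and without it the log2 fold change of Sele was 11.95. Selp, P-selectin of endothelium and platelets, had 41.2, 25.8, 37.6 and 8.01 CPM in controls and 1119, 539.7, 667, 525 and 619 CPM in grafts (4.62, SE 0.49, adjusted p = 0.00014). Icam1, the ligand of leukocyte integrins, had 54.2, 55.98, 27.8 and 88.97 CPM in controls and 444, 488, 484, 367 and 451 CPM in grafts (2.98, SE 0.32, adjusted p = 0.000157). Icam1 differed little between grafts and was at least 4 times the highest control in each. Vcam1 had 95.6, 106, 184 and 269.7 CPM in controls and 599.5, 225, 658, 470.1 and 369 CPM in grafts, with overlapping groups and a call (1.501, SE 0.39, adjusted p = 0.0361) that was lost in 7 of the 9 fits without 1 library. Pecam1, which endothelium carries at rest, was at -0.41 (SE 1.00, adjusted p = 0.871). Its entry had only 0.897 to 5.26 CPM in controls and 0.972 to 3.71 CPM in grafts, so it says little about this gene.

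Of 18 tested endothelial markers 2 were higher, beside 6.40% of all tested genes, and 0 were lower. Their median of 0.36 became -0.10 under scaling by library totals. Cdh5, the cadherin of endothelial junctions, had 101, 69.6, 81.3 and 36.4 CPM in controls and 328, 222, 346, 229.9 and 264 CPM in grafts (1.95, SE 0.31, adjusted p = 0.0024). Flt1, a receptor of vascular endothelial growth factor, rose by 1.47 (SE 0.36, adjusted p = 0.027), and this call was lost without control replicate 1 or 3 or graft replicate 1, 2 or 5. Summed markers were 753 to 992 CPM in controls and 1301 to 1640 CPM in grafts, so the sums did not overlap.

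Of 13 tested regulators of coagulation and fibrinolysis 8 were higher, 0 were lower and the median was 2.91. Thbd, the anticoagulant thrombomodulin, had 285, 212, 249 and 222 CPM in controls and 2262, 1756, 2432, 1566 and 1084 CPM in grafts (2.91, SE 0.27, adjusted p = 4.58e-05). Procr, the endothelial receptor of protein C, rose by 3.97 (SE 0.45, adjusted p = 0.000211). Plaur, the receptor of urokinase, had 24.1, 80.7, 87.6 and 83.2 CPM in controls and 4576, 2076, 2095, 1925 and 4312 CPM in grafts (5.44, SE 0.50, adjusted p = 4.58e-05). Thbs1, thrombospondin 1 of platelets and of injured vessel wall, had 75.5, 117, 87.5 and 116 CPM in controls and 5684, 3249, 4436, 3760.2 and 6654 CPM in grafts (5.59, SE 0.31, adjusted p = 6.64e-07). F3, tissue factor, rose by 2.94 (SE 0.54, adjusted p = 0.00598).

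The hyaluronan matrix, a gel of sugar chains in which leukocytes migrate, was represented by 9 tested genes. Of these 3 were higher, 0 were lower and the median was 3.91. Ptx3, a pentraxin that crosslinks this matrix, had 4.48, 4.21, 7.26 and 3.82 CPM in controls and 4552, 5279.5, 6111, 4005 and 4872 CPM in grafts (9.97, SE 0.34, adjusted p = 1.55e-08). Tnfaip6, which transfers protein chains onto hyaluronan, had 32.8, 36.8, 14.001 and 52.5 CPM in controls and 1693, 828, 1099.9, 1093 and 665 CPM in grafts (4.98, SE 0.44, adjusted p = 4.01e-05). Has1, a hyaluronan synthase, was at 4.81 (SE 1.21, adjusted p = 0.0317), a call lost without control replicate 2 or 4 or without graft replicate 1, 2, 3 or 4. Without control replicate 2 the value of Has1 was 5.42. Outside this list Sdc4, the heparan sulphate proteoglycan syndecan 4, had 803, 504, 447 and 769 CPM in controls and 15500, 15617, 19065, 18617 and 16140.4 CPM in grafts (4.75, SE 0.25, adjusted p = 5.88e-07).

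Of 15 tested matrix proteases and inhibitors 5 were higher and 1 was lower, with a median of 0.97. The count of higher members was 3 without control replicate 3 or graft replicate 3. Adamts1, which cleaves versican, had 44.3, 58.2, 92.1 and 27.5 CPM in controls and 724, 737, 321, 673 and 476 CPM in grafts (3.40, SE 0.40, adjusted p = 0.000273). Adamts4, of the same family, rose by 7.94 (SE 1.16, adjusted p = 0.00135), or 10.73 without control replicate 3. Timp2, an inhibitor of metalloproteinases, was the member that was lower (-0.95, SE 0.21, adjusted p = 0.0173), and its call was lost without control replicate 2 or 3.

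In the prostaglandin pathway 3 of 15 tested members were higher, beside 6.40% of all tested genes, and 0 were lower. Their median was -0.36. Ptgs2, cyclooxygenase 2, had 3.14, 0.733, 7.05 and 0.794 CPM in controls and 2244, 1595, 2403, 1570.0 and 2257 CPM in grafts (9.44, SE 0.78, adjusted p = 2.2e-05), or 10.34 without control replicate 3. Ptges, the inducible synthase of prostaglandin E, rose by 1.47 (SE 0.23, adjusted p = 0.00181) and Ptges3 by 1.06 (SE 0.21, adjusted p = 0.00902), a call lost under library totals. The other 12 members were not called.

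Growth factors moved in both directions. Of 9 tested EGF receptor ligands, receptors and inhibitors 4 were higher, 0 were lower and the median was 3.60. Hbegf, a membrane-bound ligand released by proteases, had 1.97, 0.916, 9.16 and 1.08 CPM in controls and 294, 443, 487, 316 and 340.4 CPM in grafts (6.85, SE 0.75, adjusted p = 0.000169), or 8.14 without control replicate 3. Ereg, epiregulin, had 1 count over the controls and 39.99, 47.9, 41.8, 26.4 and 58.4 CPM in grafts, a ratio of 1934 (95% counting interval 347 to 76410). Of 16 tested growth factors and binding proteins of the PDGF, FGF and IGF families 2 were higher and 4 lower, and the median was -0.13. Without control replicate 1, 2 or 3 the lower count was 2, and without graft replicate 1, 2 or 4 the higher count was 0. Fgf10, a fibroblast growth factor of connective tissue, had 79.3, 31.6, 48.8 and 39.1 CPM in controls and 2.43, 0, 0, 0.210 and 0.495 CPM in grafts (-6.27, SE 1.30, adjusted p = 0.0114), or -8.11 without graft replicate 1. Igfbp5, which binds IGF1 and IGF2 outside the cell, had 1160.2, 1403, 802 and 1017 CPM in controls and 321, 236, 320.4, 211 and 274 CPM in grafts (-2.01, SE 0.22, adjusted p = 0.000168). Nrp1, a co-receptor of vascular endothelial growth factor, fell too (-1.02, SE 0.22, adjusted p = 0.0125). Pdgfb, the platelet-derived growth factor that draws smooth muscle cells, had 18.6, 35.8, 4.53 and 4.62 CPM in controls and 6.33, 14.03, 20.04, 11.04 and 0.619 CPM in grafts (-0.61, SE 1.02, adjusted p = 0.81), and its groups overlapped. Without control replicate 2 the value of Pdgfb was 0.17.

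For the TGF-β and BMP system 7 of 16 tested members were higher, 0 were lower and the median was 1.91. The count fell to 3 or 4 without any 1 of the 9 libraries. Fst, follistatin, which binds activins, had 33.6, 22.1, 22.8 and 64.4 CPM in controls and 175, 267, 324, 292 and 292 CPM in grafts (2.92, SE 0.38, adjusted p = 0.000545), and Id2, a target of BMP signalling, rose by 1.81 (SE 0.36, adjusted p = 0.00914). Of 11 tested targets of YAP and stretch 1 was higher, beside 6.40% of all tested genes. It was Cyr61 (3.67, SE 0.59, adjusted p = 0.00232, or 4.33 without control replicate 1). Ankrd1, another target, had 771, 789, 1274 and 365 CPM in controls and 888, 12549.7, 2274, 3234 and 65.7 CPM in grafts (2.25, SE 1.01, adjusted p = 0.237). Without graft replicate 2 the value of Ankrd1 was 0.99. Graft replicate 2 was the highest and graft replicate 5 the lowest for Ankrd1, as they were for the sum of heart muscle markers (21443 and 409 CPM), a tissue that also carries Ankrd1, and the part of these markers in its level was not tested. Of 11 tested Krüppel-like factors 3 were higher, 0 were lower and the median was 1.28, with 1 without control replicate 2 and 5 without control replicate 3. Klf6, a factor of injured vessel wall, had 103, 97.03, 146 and 212 CPM in controls and 1051, 1124, 1101, 676 and 1029 CPM in grafts (2.84, SE 0.29, adjusted p = 0.00011).

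**Figure D4:**
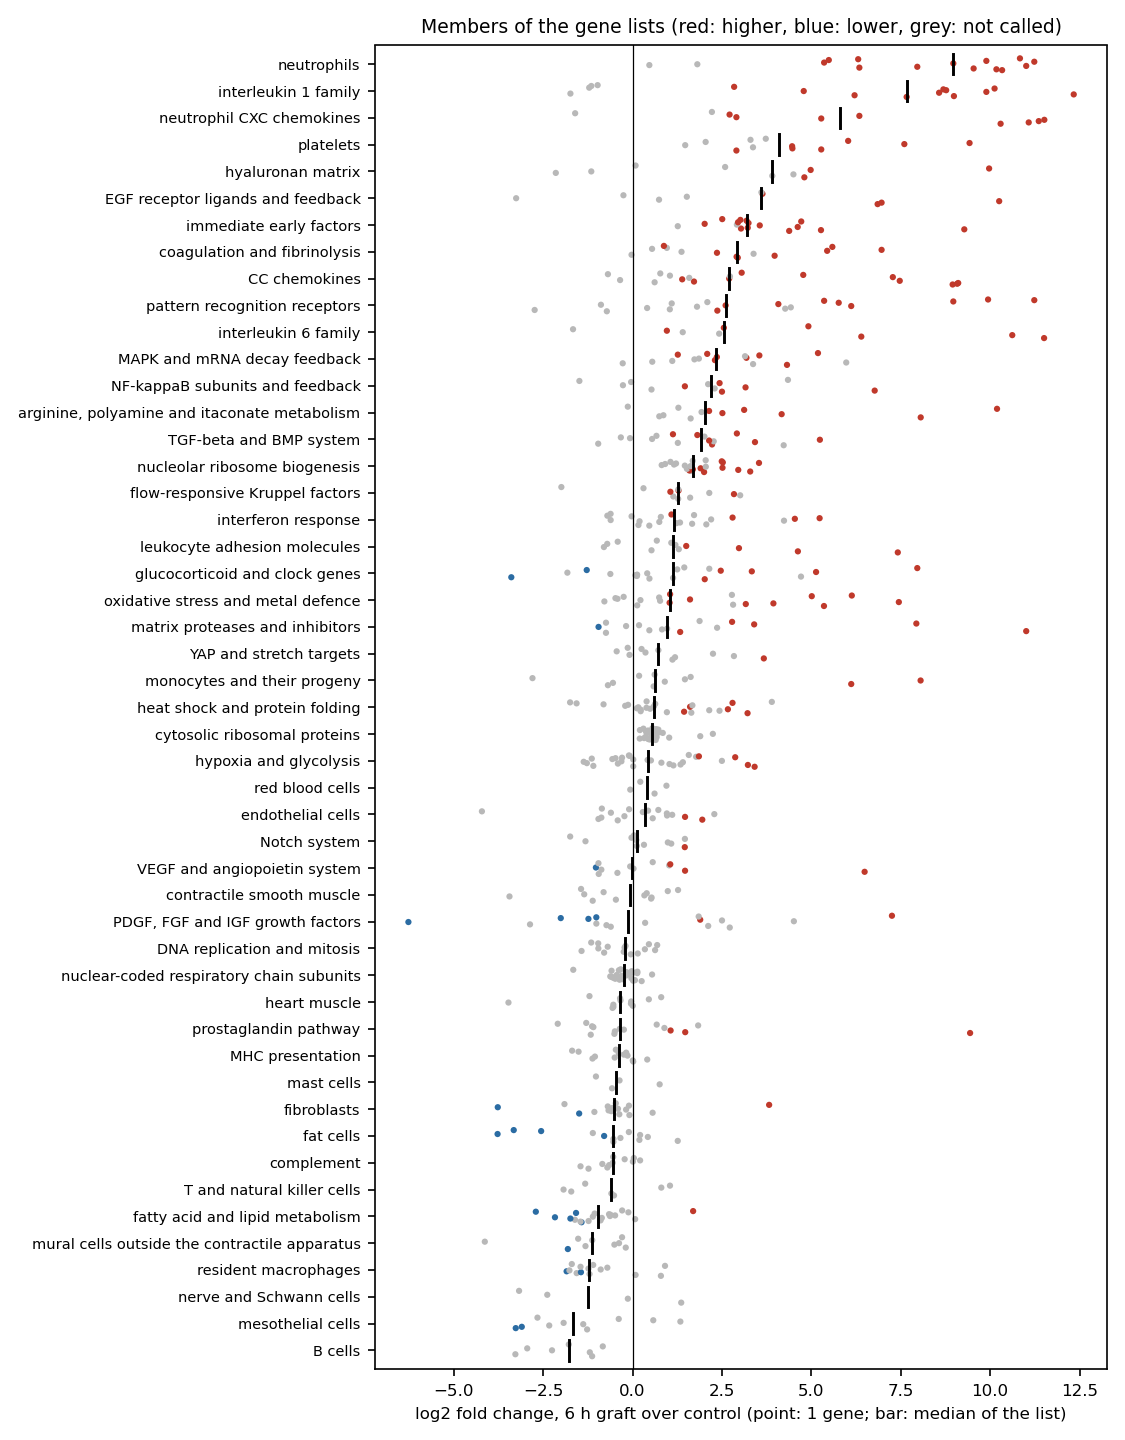
Each point is the log2 fold change of 1 tested gene in 6 h grafts over control, each row is a gene list, and the black bar is the list's median. Lists are ordered by median from -1.78 (B cells) to 8.97 (neutrophils), red points are genes called higher, blue points genes called lower, and values of genes with 0 to 3 control counts are those of the fit.

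Stress genes rose in part of each list. Of 27 tested genes of hypoxia and glycolysis 4 were higher, beside 6.40% of all tested genes, and 0 were lower. Their median was 0.42. Hif1a, the oxygen-regulated subunit of the hypoxia-inducible factor, had 50.8, 51.03, 65.4 and 95.4 CPM in controls and 696, 442, 804, 636 and 923 CPM in grafts (3.41, SE 0.30, adjusted p = 4.01e-05). Adm, the vasodilator adrenomedullin, had 59.4, 62.9, 48.95 and 35.6 CPM in controls and 375, 355, 323, 533 and 305 CPM in grafts (2.87, SE 0.27, adjusted p = 6.15e-05). Slc2a1, the glucose transporter GLUT1, rose by 3.23 (SE 0.58, adjusted p = 0.00498), or 4.21 without control replicate 3. Ldha (-0.56, SE 0.95, adjusted p = 0.809) and Pgk1 (0.51, SE 0.63, adjusted p = 0.724), enzymes of glycolysis that hypoxia induces in many cells, were not called. Their entries had low levels, for Ldha 1.65 to 4.57 CPM in controls and 0.495 to 2.73 CPM in grafts. Pgk1 had 10.3 to 18.3 CPM in controls and 12.3 to 25.8 CPM in grafts. Entries with so few counts say little about these genes.

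In the list of oxidative stress and metal defence 9 of 19 tested members were higher, 0 were lower and the median was 1.05, and under scaling by library totals 7 were higher and 3 lower. Mt1, a metallothionein that binds zinc and copper, had 598, 704, 683 and 440.5 CPM in controls and 11941, 16744, 26846, 23919 and 18395 CPM in grafts (5.01, SE 0.30, adjusted p = 1.65e-06). Mt2, its neighbour on chromosome 8, had 28.2, 64.1, 67.4 and 40.1 CPM in controls and 2451, 3013, 4923, 4029.5 and 3100.3 CPM in grafts (6.13, SE 0.38, adjusted p = 1.76e-06). Both were highest in graft replicate 3 and lowest in graft replicate 1. Hmox1, which degrades haem, had 29.8, 70.6, 13.8 and 16.96 CPM in controls and 1671, 1006, 389.8, 810.2 and 2828 CPM in grafts (5.35, SE 0.72, adjusted p = 0.000764), or 6.05 without control replicate 2. Sod2, the superoxide dismutase of mitochondria, rose by 1.61 (SE 0.22, adjusted p = 0.00086).

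Of 25 tested genes of heat shock and protein folding 5 were higher, beside 6.40% of all tested genes, and 0 were lower. Their median was 0.60. Atf4, the factor of the integrated stress response, had 49.2, 147, 73.3 and 94.2 CPM in controls and 508, 705, 685, 558 and 698 CPM in grafts (2.80, SE 0.32, adjusted p = 0.000209), and Hspb1, a small heat shock protein, rose by 2.67 (SE 0.48, adjusted p = 0.00498). In arginine, polyamine and itaconate metabolism 6 of 12 tested genes were higher, 0 were lower and the median was 2.04. Odc1, which makes putrescine, had 8.16, 10.9, 6.32 and 7.36 CPM in controls and 153, 145, 188, 136 and 116 CPM in grafts (4.17, SE 0.32, adjusted p = 1.2e-05). Irg1, the itaconate synthase of activated myeloid cells, had 0.179, 0.0916, 0.316 and 0.505 CPM in controls and 288, 317, 193, 174 and 738 CPM in grafts (10.19, SE 0.71, adjusted p = 5.88e-06).

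Glucocorticoid targets and clock genes were 5 higher and 2 lower of 19 tested, with a median of 1.13. Nfil3, a repressor that works with the clock, had 1.70, 5.96, 5.90 and 8.88 CPM in controls and 170.4, 121, 257, 144 and 294 CPM in grafts (5.13, SE 0.53, adjusted p = 0.00012). Cebpb rose by 3.34 (SE 0.39, adjusted p = 0.000262) and Cebpd by 2.47 (SE 0.36, adjusted p = 0.00131), both transcription factors of the acute phase. Lcn2, lipocalin 2, which the neutrophil list holds as well, had 5.11, 4.67, 46.5 and 24.9 CPM in controls and 1953, 4616, 7356, 4309 and 7083 CPM in grafts (7.96, SE 0.88, adjusted p = 0.000176), or 8.77 without control replicate 3. The 2 lower members were Per3 (-3.39, SE 0.73, adjusted p = 0.0136) and Cebpa (-1.28, SE 0.32, adjusted p = 0.0328). The call of Cebpa was lost without control replicate 1 or 2 or graft replicate 1, 2, 4 or 5, and Per3 kept its call in these fits. The hour of day at which vessels were taken is not given, so its part in these genes cannot be told apart.

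Of 20 tested interferon response genes 4 were higher, beside 6.40% of all tested genes, and 0 were lower. Their median was 1.16. Gbp2, a guanylate-binding protein, had 61.3, 69.7, 39.4 and 64.7 CPM in controls and 395, 501, 396, 522 and 229.9 CPM in grafts (2.80, SE 0.30, adjusted p = 0.000154). Cxcl10, a chemokine for T cells, had 0.538, 22.8, 0.210 and 23.02 CPM in controls and 539.7, 487, 473, 528 and 169 CPM in grafts (5.23, SE 1.15, adjusted p = 0.0156), and its controls fell into a low and a high pair.

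Of 23 tested genes of nucleolar ribosome biogenesis 11 were higher, 0 were lower and the median was 1.68, and all 23 had positive values. Under scaling by library totals all 23 stayed positive and 7 were higher. Ddx21, an RNA helicase of the nucleolus, had 24.7, 51.3, 46.6 and 36.3 CPM in controls and 286, 233, 178, 149 and 275 CPM in grafts (2.49, SE 0.32, adjusted p = 0.000508). Gnl3, nucleostemin, had 31.6, 67.6, 38.95 and 58.7 CPM in controls and 264, 325, 402, 301 and 124 CPM in grafts (2.52, SE 0.37, adjusted p = 0.00146). Nop56, a core protein of small nucleolar particles, rose by 2.00 (SE 0.34, adjusted p = 0.00358). Ribosomal proteins themselves had a median of 0.55 over 26 tested genes and 0 calls by edgeR. At an unadjusted p under 0.05, 11 of them were higher, and DESeq2 called 2 higher. All 26 were positive on the TMM scale and 17 under library totals. Without control replicate 4, 3 were higher. The list of DNA replication and mitosis had 0 calls among 15 tested genes by either tool and 0 at an unadjusted p under 0.05, with a median of -0.22.

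Genes of lipid synthesis and fat storage were among those that were lower. Of 20 tested genes of fatty acid and lipid metabolism 5 were lower and 1 was higher, beside 1.58% and 6.40% of all tested genes. Their median was -0.98, and 9 were lower without graft replicate 4. Srebf1, the transcription factor that switches on fatty acid synthesis, had 341, 279, 435 and 315 CPM in controls and 47.97, 55.04, 55.6, 38.3 and 65.9 CPM in grafts (-2.70, SE 0.24, adjusted p = 3.86e-05). Dgat2, which makes triglycerides, had 1129.8, 853, 1085 and 883 CPM in controls and 236, 359, 255, 461 and 169 CPM in grafts (-1.74, SE 0.28, adjusted p = 0.00239). Acaca, acetyl-CoA carboxylase of fatty acid synthesis, had 711, 434, 723 and 421 CPM in controls and 152, 186, 146, 349.9 and 231 CPM in grafts (-1.43, SE 0.30, adjusted p = 0.013). For each of the 3 genes every graft was below every control, as in 5.29% of all tested entries. For Dgat2 and Acaca graft replicate 4 was the highest graft. Agpat2, an acyltransferase of the same pathway, fell by 2.17 (SE 0.45, adjusted p = 0.0114). Thrsp, a regulator of lipogenesis and one of the genes with the most counts in controls, had 11704, 8102, 9566 and 7362 CPM in controls and 1045, 1138, 642, 4688 and 2728 CPM in grafts (-2.16, SE 0.50, adjusted p = 0.0201), a call lost without control replicate 1 (adjusted p = 0.0579). Fasn (-1.23, SE 0.38, adjusted p = 0.0792) and Scd1 (-0.89, SE 0.34, adjusted p = 0.155) were not called on the TMM scale, and both were called lower without graft replicate 4 (adjusted p = 0.00658 and 0.0227) and under library totals.

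Of 13 tested markers of fat cells 4 were lower, beside 1.58% of all tested genes, and 0 were higher. Their median was -0.54, and the sums overlapped (35727 to 54121 CPM in controls and 31613 to 54395 CPM in grafts). Without control replicate 1, 2 or 3 or graft replicate 1, 2 or 3 the count of lower markers was 2. Pck1, which supplies glycerol for triglycerides, had 901, 1136, 1985 and 1320 CPM in controls and 115, 264, 22.5, 142 and 125 CPM in grafts (-3.32, SE 0.53, adjusted p = 0.00236). Slc2a4, the insulin-regulated glucose transporter GLUT4, had 205, 136, 325 and 160.1 CPM in controls and 7.59, 36.8, 42.8, 71.995 and 16.3 CPM in grafts (-2.56, SE 0.56, adjusted p = 0.0149). Fabp4 (0.43, SE 0.22, adjusted p = 0.317) and Cfd (0.21, SE 0.22, adjusted p = 0.657), which fat cells carry in large amounts, were not called.

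Mesothelial cells cover the outside of vessels in the body cavity. Of 10 tested markers 2 were lower, beside 1.58% of all tested genes, and 0 were higher. Their median was -1.65, and their sum was 743 to 805 CPM in controls and 102 to 320 CPM in grafts. Upk3b, an uroplakin of mesothelium, had 240.3, 185, 355 and 265 CPM in controls and 36.2, 45.7, 26.1, 25.8 and 1.73 CPM in grafts (-3.27, SE 0.64, adjusted p = 0.00828). Graft replicate 5 was the lowest, and 4 members were lower when it was left out. Msln, mesothelin, had 142, 143, 106 and 203 CPM in controls and 25.3, 74.2, 66.8, 46.7 and 94.9 CPM in grafts and was not called (-1.27, SE 0.37, adjusted p = 0.0624), although the groups did not overlap. It was called lower by DESeq2, under upper-quartile and library-total scaling and without graft replicate 5. The call of the second lower gene, Upk1b, was lost without any 1 of control replicates 1 to 4 or of graft replicates 1, 2 or 4.

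Of 16 tested fibroblast markers 2 were lower and 1 was higher, beside 1.58% and 6.40% of all tested genes. Their median was -0.52, and under library totals 7 were lower. Col3a1, collagen type III, had 732, 1042, 1161 and 595 CPM in controls and 337, 306, 356, 192 and 378 CPM in grafts (-1.49, SE 0.26, adjusted p = 0.00419). The call of Cd248, the second lower gene, was lost in 7 of the 9 fits without 1 library. Lox, which crosslinks collagen and is also a target of hypoxia-inducible factors, was higher, with 42.8, 24.2, 25.2 and 18.8 CPM in controls and 274, 359, 642, 395 and 288 CPM in grafts (3.82, SE 0.37, adjusted p = 6.65e-05).

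Contractile genes of vascular smooth muscle cells, whose loss marks the switch from the contractile to the synthetic state, were not called. Among 12 tested members edgeR called 0 higher and 0 lower, and the median was -0.07. At an unadjusted p under 0.05, 1 was higher and 3 were lower, and DESeq2 called 0 higher and 3 lower. Acta2, smooth muscle α-actin, had 191, 309.9, 226 and 128 CPM in controls and 97.5, 94.2, 155, 68.5 and 78.9 CPM in grafts (-1.11, SE 0.32, adjusted p = 0.0539). It was called lower with DESeq2, with upper-quartile, RLE and library-total scaling, with a filter of 50 counts in 4 libraries and without control replicate 4 or graft replicate 3. Tagln, transgelin, had 108, 248, 215 and 156 CPM in controls and 103, 160.1, 122, 179.6 and 92.9 CPM in grafts (-0.47, SE 0.30, adjusted p = 0.447). Cnn1, calponin 1, had 0.0897, 54.8, 23.5 and 1.88 CPM in controls and 10.3, 113, 10.1, 9.98 and 0.247 CPM in grafts (0.52, SE 1.51, adjusted p = 0.895), and its levels spread widely within each group. Without control replicate 2 the value of Cnn1 was 1.77 and without graft replicate 2 it was -1.40. In the list of other mural cell genes 1 of 9 tested was lower, Cspg4 (-1.81, SE 0.43, adjusted p = 0.0246), a call lost without control replicate 2 or 3 or graft replicate 1 or 4, and the median was -1.13.

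**Figure D5:**
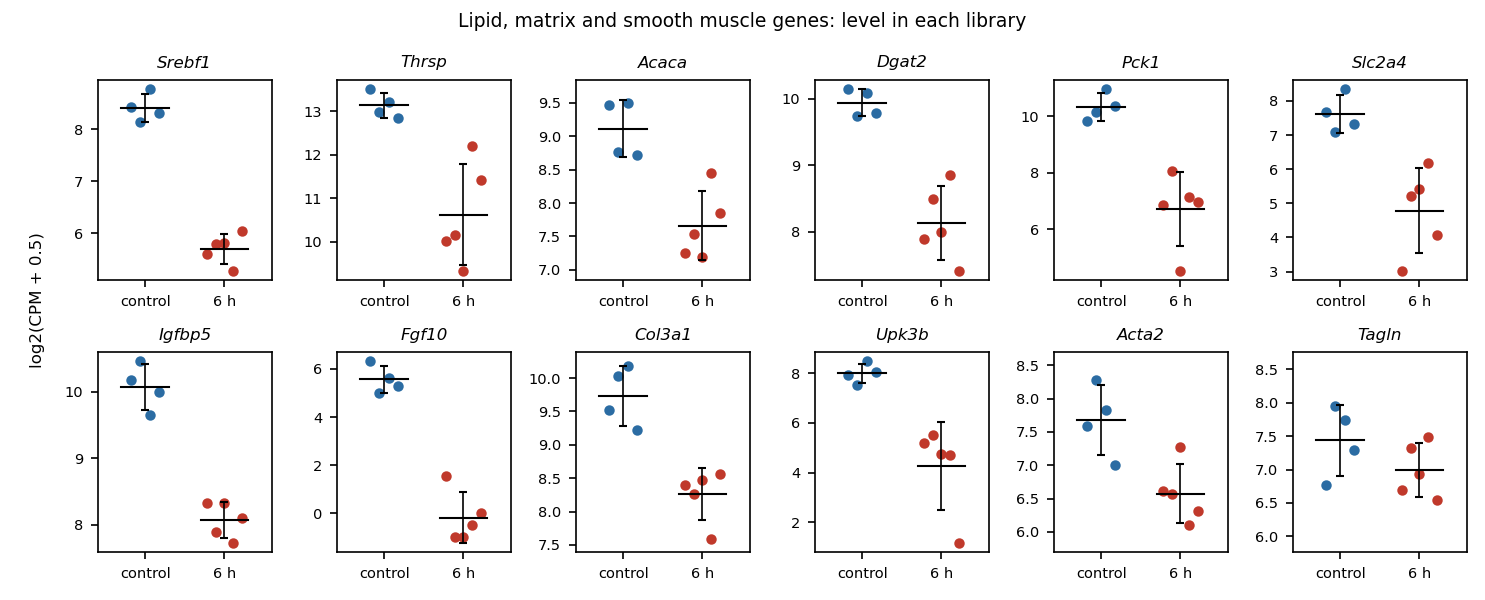
Levels of 12 genes in each library, as log2 of CPM plus 0.5, with 4 control vena cavae in blue and 5 grafts at 6 h in red. Bars are group means and whiskers are SDs, and the vertical scale differs between panels. The first 10 genes were called lower with no overlap of the groups, while Acta2 and Tagln were not called and overlap. Of all tested entries 5.29% had every graft below every control.

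Genes of complement (11 tested), antigen presentation (13), the respiratory chain (26) and heart muscle (12) had 0 calls by edgeR. At an unadjusted p under 0.05 and lower there were 3, 2, 3 and 1 of them, and DESeq2 called 3, 1, 1 and 1 lower and 0 higher. Their medians were -0.55, -0.39, -0.24 and -0.34, and under library totals 3, 0, 7 and 1 were called lower. C3, the central component of complement, had 1695, 1374, 1701 and 2462 CPM in controls and 1533, 1003, 698, 1499 and 1425 CPM in grafts (-0.55, SE 0.26, adjusted p = 0.27). B2m, the light chain of class I molecules, was at 0.41 (SE 0.23, adjusted p = 0.367). Nppa, the atrial natriuretic peptide, had 1022, 959, 1178 and 132 CPM in controls and 2.34, 86.7, 107, 169 and 6.81 CPM in grafts and was not called (-3.47, SE 1.01, adjusted p = 0.0615), with control replicate 4 within the range of the grafts. Without that control Nppa was called lower (adjusted p = 0.0473). In the VEGF and angiopoietin list 3 of 12 tested members were higher and 1 lower, beside 6.40% and 1.58% of all tested genes. Without control replicate 1 or graft replicate 1 or 2, 0 were higher. In the Notch list 1 of 11 was higher, beside 6.40% of all tested genes. It was Jag1 (1.46, SE 0.39, adjusted p = 0.0407), a call lost in 7 of the 9 fits without 1 library. Of 4 tested nerve and Schwann cell markers 0 were called by edgeR or DESeq2 and 0 were at an unadjusted p under 0.05.

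Some of the largest falls were of genes at low levels. Plcxd3, a phospholipase-like protein, had 3.23, 7.42, 24.3 and 19.2 CPM in controls and 1 count over the grafts, a ratio of 0.00157 (95% counting interval 3.97e-05 to 0.00879). Grb7, an adaptor of receptor tyrosine kinases, had 9.23, 12.7, 40.003 and 27.3 CPM in controls and 0, 0.0911, 0.607, 0 and 0 CPM in grafts (-7.24, SE 1.52, adjusted p = 0.0123), or -9.27 without graft replicate 3. Among the genes with the most counts in grafts were Actb, cytoplasmic β-actin, and Tmsb4x, thymosin β4, which binds actin monomers. Actb had 17101, 11425, 11231 and 17175 CPM in controls and 40699, 41785, 61254, 34950.2 and 73695 CPM in grafts (1.83, SE 0.27, adjusted p = 0.00135). Tmsb4x rose by 1.53 (SE 0.41, adjusted p = 0.0442), and this call was lost in 7 of the 9 fits without 1 library.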

How the data were processed

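The authors deposited raw counts per RefSeq transcript. Per the labels and the methods of the study, they sequenced total RNA amplified with a SMARTer kit as single reads of 50 bases on an Illumina HiSeq instrument, mapped them to mm9 with gsnap, allowing 10 mismatches, and counted with HTSeq 0.5.4p3, without strand and at a mapping quality of at least 19. Amplified low-input RNA and unstranded counting can blur antisense and near-identical genes. Columns of the authors' own comparisons (fold changes and p-values) were not used, and 5 other count columns were given to no group.

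From these counts, 10383 of 13212 entries passed filterByExpr (minimum count 10) and were tested with edgeR 4.0.16 (TMM, quasi-likelihood F test on the 9 libraries, no covariate, Benjamini-Hochberg adjustment) in R 4.3.3. Genes with almost no counts in a group passed the filter through the other group, which fixed their direction. DESeq2 1.42.0, other scalings and filters, a fit of 13 libraries, and fits without 1 library were alternatives. Symbols came from the file, or from RefSeq for 803 entries, and 83 had none. The test was tested on simulated data.

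The members and the 49 gene lists were chosen with earlier results of these data known. Named genes were the 12 largest rises and falls with a mean of at least 50 normalized counts and no overlap, the 10 smallest p, up to 4 members of each list, the genes the study measured by PCR or named for smooth muscle, and the 10 most abundant genes of each group, of which a part is printed. Where a symbol had several entries, that with the highest mean count was used. Ratios of genes with 1 to 3 counts in a group carry 95% intervals, and these and the floor of 3 counts cover counting error only.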

Additional observations from a re-analysis of the deposited data

Results flagged for a closer look

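In 41 of 286 groups of libraries checked, the CPM of 1 library lay far from the rest of its group (Dixon's 95% critical value). This value assumes a normal spread, which CPM need not have, so no chance rate is set beside the 41. In Ereg, Il1f9, Nlrp3, Stfa2l1 and Plcxd3 a single count among libraries with 0 is flagged by necessity. Of these 35 were high and 6 low. Graft replicate 5 was high for S100a9 (14530 CPM), Il1r2 (8127), Mmp8 (1822), Irg1 (737.8), Fpr1 (555.6), Myd88 (320.1) and Mrgpra2b (132.5), and low for Cxcl10 (168.6 CPM). This library also had the highest sum of neutrophil markers, 71646 CPM, and its part in these values was not tested. Graft replicate 3 was high for Ccl2 (24350 CPM) and Pf4 (4131). Graft replicate 2 was high for Ankrd1 (12550 CPM), Cyr61 (1134) and Cnn1 (113.1). Graft replicate 1 was high for Selp (1119 CPM), Sele (226.9), Fgf10 (2.433) and Plcxd3 (0.0973, which is 1 count). Graft replicate 4 was high for Agpat2 (503.3 CPM) and Cbr2 (70.73) and low for Klf6 (676.4), and graft replicate 3 was high for Grb7 (0.6073).

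Control replicate 3 was high for Slc2a1 (65.16 CPM), Hbegf (9.159), Adamts4 (3.263), Csf2 (1.79) and Ereg (0.1053), and low for Nop56 (33.37). Control replicate 1 was high for Spry2 (310.7 CPM), Uap1 (153.2), Dusp1 (150.4) and Nlrp3 (0.0897) and low for Plaur (24.12). Control replicate 2 was high for Socs3 (40.4 CPM), Fpr1 (1.374) and for Il1f9 and Stfa2l1 (0.0916 each, 1 count), and low for Flt1 (16.77). Control replicate 4 was high for Lyz2 (2620 CPM), Il1b (9.381) and Sele (3.752) and low for Ier3 (57.8).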

How the results depend on the processing

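Of 123 named genes that were called, 109 kept their call under every alternative in which they were tested, 14 lost it under at least 1, and 0 were reversed. A fold threshold was not among these alternatives. Of 21 named genes that were not called, 7 were called under at least 1 alternative. Against 665 higher and 164 lower genes, DESeq2 called 1013 higher and 547 lower, and scaling by library totals called 463 higher and 512 lower. Leaving out 1 library at a time gave 508 to 573 higher and 80 to 143 lower genes, of which 475 to 558 and 74 to 114 were shared with the fit of all 9 libraries. Control replicates 1, 2 and 3 were the libraries without which the lower count moved by over 1.5 times. The other scalings, filters and fits stayed within 1.5 times in both directions. Of 1666 counts over gene lists 106 moved by over 1.5 times, 24 to larger and 82 to smaller counts. No paired analysis was possible because the count columns carry no number that ties a graft to a control. Levels near 1 count in a group limit the folds of Il1f9, Nlrp3, Ereg, Stfa2l1 and Plcxd3, and the 4 and 5 libraries a group limit the power for small differences.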

Other observations

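The genes in the next 2 paragraphs belong to no list of the report except where said and were chosen after their values were seen. Ugdh, which makes UDP-glucuronate, had 64.6, 70.5, 104 and 32.7 CPM in controls and 1403, 1117, 1358, 1479.6 and 887 CPM in grafts (log2 fold change 4.20, SE 0.35, adjusted p = 2.42e-05). Gfpt2 (3.04, SE 0.42, adjusted p = 0.00088) and Uap1 (2.54, SE 0.36, adjusted p = 0.00118), which act on the way to UDP-N-acetylglucosamine, rose too. Itga5, the integrin subunit that binds fibronectin, had 50.03, 75.1, 54.1 and 74.8 CPM in controls and 698, 1039.6, 1032, 684 and 390 CPM in grafts (3.60, SE 0.33, adjusted p = 4.58e-05). For each of these 4 genes every graft was above every control. Kdm6b, a histone demethylase induced in inflammation, rose by 3.67 (SE 0.27, adjusted p = 1.04e-05). Csf2, the growth factor of granulocytes and macrophages, rose by 9.01 (SE 0.98, adjusted p = 0.000168), or 10.81 without control replicate 3.

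Irs1, the docking protein of the insulin receptor, had 72.1, 94.1, 92.6 and 130.4 CPM in controls and 18.002, 7.20, 12.3, 2.73 and 19.5 CPM in grafts (-3.03, SE 0.54, adjusted p = 0.00507). Gys1, glycogen synthase, had 143, 134, 129 and 95.3 CPM in controls and 30.7, 11.8, 12.6, 15.8 and 29.4 CPM in grafts (-2.64, SE 0.39, adjusted p = 0.00135). Both were lower in every graft than in any control. Adipor2, a receptor of adiponectin, was at -1.58 (SE 0.23, adjusted p = 0.00126) and Aqp7, the glycerol channel of fat cells, at -1.69 (SE 0.26, adjusted p = 0.00198). Summed markers of fat cells overlapped between the groups (35727 to 54121 CPM in controls, 31613 to 54395 CPM in grafts), and their part in these falls was not tested.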
